A study of Mus musculus with 6 samples.

Results

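Amino acid transporters are the membrane proteins that carry amino acids into, out of and between the compartments of a cell. The genes described here belong to 6 solute carrier families, SLC1, SLC3, SLC7, SLC36, SLC38 and SLC43. Membership was set by gene symbol alone, but the families were chosen with earlier results of these data known. Of the 25901 rows of the deposited expression table, 38 carried such a symbol, 1 row per gene. Slc7a9, Slc7a12, Slc36a3 and Slc38a8 had no row.

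RNA was measured in whole hearts of 3 wild-type (WT) mice and 3 SRAKO mice, and both groups received isoproterenol for 4 weeks, a drug that stimulates beta-adrenergic receptors and so drives cardiac growth. The series concerns the steroid receptor RNA activator (SRA), a coactivator RNA made from the gene Sra1, in myocardial hypertrophy. The labels do not give the allele, strain, age, sex or dose, and untreated hearts were not analysed here. Values are FPKM, in which coverage is divided by the length of the transcript and the size of the library, and levels of different genes can be compared per length.

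The families divide the work between them. SLC1 proteins move acidic and small neutral amino acids with sodium. The SLC3 heavy chains bring SLC7 light chains to the cell surface, where the pair exchanges large neutral, cationic or acidic amino acids, while other SLC7 proteins carry arginine and lysine on their own. SLC36 proteins couple small neutral amino acids to protons, often at the lysosome, SLC38 proteins take up glutamine and alanine with sodium, and SLC43 includes carriers of branched-chain amino acids. In heart muscle such carriers feed protein synthesis, glutamine and glutamate metabolism and the amino acid sensing of the kinase complex mTORC1.

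Sra1 had a mean of 4.98 ± 1.15 FPKM in WT against 1.93 ± 0.139 in SRAKO (mean ± SD over 3 hearts, as in all values below), and the genotypes did not overlap (limma, Benjamini-Hochberg adjusted p = 0.258). Of the 10201 rows with at least 1 FPKM in at least 3 hearts, limma called 2 after Benjamini-Hochberg adjustment (0.0196%), Apc and Pafah1b1, both lower in SRAKO. The heart label was met by the cardiomyocyte markers, 8 of 8 tested, whose summed level lay between 15580 and 18860 FPKM. Hearts differed in ways that their genotype labels do not give. WT2368 held the lowest value of the 6 hearts in 44.9% of all tested rows and in 12 of the 17 tested transporters. SRAKO2371 had the most fat cell RNA, with a summed level of 237 FPKM over 8 adipocyte markers, against 40.8 to 124 in the other 5 hearts. SRAKO2371 and SRAKO2372 also stood apart in neutrophil markers, 8 genes of which 4 were tested, with sums of 30.4 and 57.1 FPKM against 2.33 to 12.4 elsewhere. The same hearts were lowest in erythroid markers, with sums of 1070 and 1088 FPKM over 6 genes against 1397 to 2425. WT2379 had the most atrial RNA, at 8442 FPKM over 6 atrial markers against 2485 to 3747 elsewhere. Fewer cells of a type and less RNA per cell cannot be told apart in bulk tissue.

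Expression of the transporters was concentrated in a few genes. Of the 38 genes, 5 had a mean of at least 10 FPKM, 12 lay between 1 and 10, 11 between 0.1 and 1, and 10 below 0.1. The 17 genes of the first 2 classes were also those that passed the filter for testing. Summed over all 38 genes the level was 142 ± 21.7 FPKM in WT and 144 ± 7.09 in SRAKO. The SLC38 family held the largest share of that sum, 40.9% in WT and 38.1% in SRAKO, followed by SLC43 with 28.1% and 28.9%.

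Slc43a3, an SLC43 protein described as a carrier of purine bases rather than of amino acids, was the strongest member. Its levels were 33.0, 41.1 and 42.95 FPKM in WT2368, WT2379 and WT2378, and 37.6, 38.9 and 43.1 in SRAKO2365, SRAKO2371 and SRAKO2372. Its lowest heart lay above every heart of the next gene, so its first place held in each of the 6 hearts.

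Slc38a2, Slc38a3 and Slc38a10 came next. Slc38a2, the glutamine and alanine carrier SNAT2 that amino acid starvation induces in many cells, was at 17.5, 30.5 and 16.9 FPKM in the WT hearts (in the order given above, kept from here on) and at 16.1, 16.9 and 19.9 in the SRAKO hearts. Slc38a3, the glutamine carrier SNAT3, was at 13.5, 16.9 and 17.5 in WT and at 17.8, 14.1 and 16.4 in SRAKO. Slc38a10 was at 10.5, 14.7 and 14.8 in WT and at 14.1, 13.4 and 13.9 in SRAKO. Slc38a2 and Slc38a3 overlapped, and their order is not set beyond the spread between hearts. Slc38a10 lay below Slc38a3 in each of the 6 hearts and, with a highest value of 14.8, below every heart of Slc38a2.

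Slc3a2, the heavy chain 4F2hc (CD98), followed at 9.08, 13.3 and 11.1 FPKM in WT and 10.4, 12.7 and 13.6 in SRAKO. Slc1a5, the glutamine exchanger ASCT2, was at 6.91, 8.36 and 9.62 in WT and 7.86, 13.2 and 10.1 in SRAKO. Slc36a2, the proton-coupled carrier PAT2, was at 4.31, 5.01 and 5.83 in WT and 4.47, 9.18 and 5.60 in SRAKO. Slc7a1, the arginine and lysine carrier CAT1, was at 2.97, 4.43 and 4.94 in WT and 4.30, 4.08 and 4.05 in SRAKO. Genotypes overlapped in each of these 8 strongest members.

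**Figure D1:**
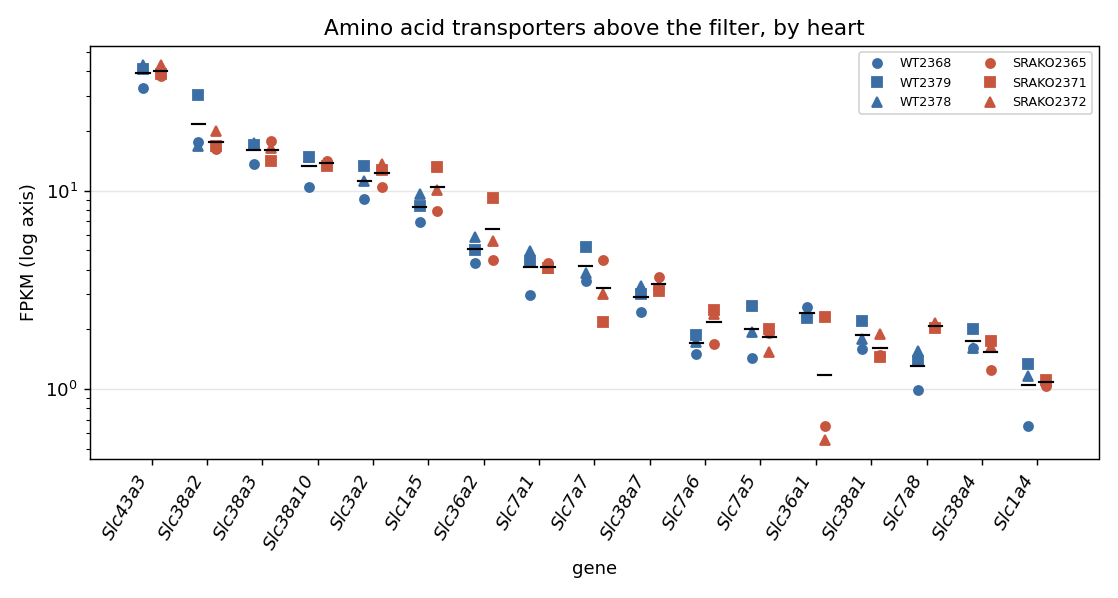
FPKM on a log axis of the 17 transporters that passed the filter, ordered by mean; each symbol is 1 heart (blue WT, red SRAKO) and each black line a group mean. Slc43a3 stands above all others, Slc36a1 has 2 SRAKO hearts at 0.650 and 0.552 below the rest, and the 3 SRAKO hearts of Slc7a8 lie above its WT hearts.

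None of the tested transporters could be called different between genotypes. No member (0 of 17) passed limma with Benjamini-Hochberg adjustment over all rows, the smallest adjusted p being 0.999. Differences are given as SRAKO minus WT of log2(FPKM + 1). Their median was 0.04 over the 17 members and 0.01 over all 10201 tested rows. Members above and below WT numbered 11 and 6, where 53.5% of all tested rows lay above. An unadjusted p under 0.05 was found for 2 members, Slc7a8 above WT and Slc36a1 below, against 3.46% of all tested rows. Genotypes did not overlap in 1 member, Slc7a8, against 8.05% of all tested rows, of which 4.28% lay wholly above WT and 3.76% wholly below. With counts this small the members' shares cannot be set apart from the background. Without WT2368 the median was -0.10 over the members and -0.04 over all tested rows, so both moved down.

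**Figure D2:**
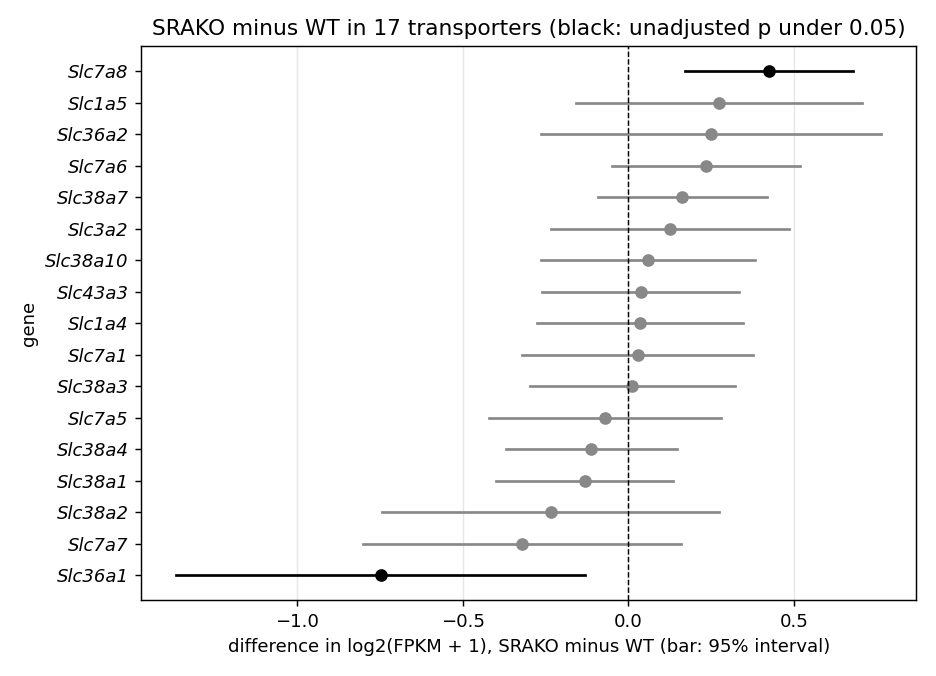
Difference in log2(FPKM + 1), SRAKO minus WT, of the 17 tested transporters with 95% intervals from limma, sorted by size; black marks an unadjusted p under 0.05. Intervals of 15 of the 17 genes cross 0, and those of Slc7a8 (0.43) and Slc36a1 (-0.75) do not.

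Slc7a8 encodes LAT2, a light chain that pairs with Slc3a2 and exchanges neutral amino acids of many sizes. It was at 0.990, 1.38 and 1.55 FPKM in the WT hearts and at 2.05, 2.04 and 2.15 in the SRAKO hearts. Each SRAKO heart lay above each WT heart, and the SRAKO values were close together. Means were 1.31 ± 0.286 and 2.08 ± 0.0617, which puts SRAKO at 159% of WT. On the log2 scale the difference was 0.43 (SE 0.11, 95% interval 0.17 to 0.68; limma, unadjusted p = 0.00488; Benjamini-Hochberg adjusted p = 0.999). Permuting the 6 hearts gave an exact two-sided p of 0.1, below which a test of 3 hearts against 3 cannot go. The difference stayed between 0.32 and 0.50 when any 1 heart was left out. Some markers of other cells had the same split between genotypes. They were picked after their values were seen, so the shared split is no support for a link. Of all tested rows, 4.28% lay wholly above WT and 3.76% wholly below. Other markers split the other way. The cardiomyocyte marker Ryr2 was at 34.35 to 38.44 FPKM in WT and 29.15 to 33.9 in SRAKO. The atrial marker Kcnj3 was at 3.263 to 3.525 in WT and 1.73 to 3.04 in SRAKO. The sum of the 8 macrophage markers did not overlap (86.7 to 101 FPKM in WT, 103 to 116 in SRAKO), and of its genes C1qa, a complement subunit, did not overlap either (23.6 to 32.7 in WT, 35.2 to 38.2 in SRAKO), while the other 7 did. Of the 8 smooth muscle and pericyte markers only Myh11, the smooth muscle myosin, was without overlap, at 10.2 to 14.4 in WT and 15.7 to 17.1 in SRAKO (limma, unadjusted p = 0.0142; Benjamini-Hochberg adjusted p = 0.999), and their sum overlapped at 281 to 360 and 348 to 353. The sum of the 8 endothelial markers was without overlap as well, at 265 to 276 FPKM in WT and 279 to 293 in SRAKO. Yet 6 of these 8 genes had a log2 difference below 0, and each of the 8 overlapped between genotypes. The 2 above 0 were Fabp4 (0.30) and Pecam1 (0.14). Fabp4, the strongest of the 8, was at 82.7 to 108 FPKM in WT and 98.1 to 132 in SRAKO. It was highest in SRAKO2371, the heart with the most adipocyte marker RNA. The endothelial sum leaned on this gene and does not speak for the 8 as a set. The part of any of these cell types in the level of Slc7a8 was not tested. The row of Slc7a8 (GRCm38 chromosome 14, 54722209 to 54781930, minus strand) holds the only annotated coding transcript of the gene.

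The other light chains did not share this separation. Slc7a5, the light chain LAT1 that imports leucine and other large neutral amino acids, was at 1.44, 2.61 and 1.94 FPKM in WT and 1.92, 2.01 and 1.54 in SRAKO (log2 difference -0.07, SE 0.15). Slc7a6, the light chain y+LAT2, was at 1.51, 1.87 and 1.72 in WT and 1.69, 2.49 and 2.38 in SRAKO (difference 0.23, SE 0.12). Slc7a7, the light chain y+LAT1 that exports cationic amino acids, was at 3.52, 5.22 and 3.82 in WT and 4.44, 2.18 and 3.01 in SRAKO (difference -0.32, SE 0.21). In all 3 genes the genotypes overlapped. Without SRAKO2365, 4 of the 17 members (Slc7a6, Slc7a7, Slc7a8 and Slc1a5) did not overlap between genotypes, against 17.2% of all rows in that fit, and the same 4 had an unadjusted p under 0.05, against 3.94%. None of the 4 passed limma with Benjamini-Hochberg adjustment. The SRAKO hearts left in that fit, SRAKO2371 and SRAKO2372, are those with the most neutrophil, the most adipocyte and the least erythroid marker RNA, whose part in these values was not tested. Macrophages, which are known to express Slc7a7, had markers that summed to 86.7 to 101 FPKM in WT and 103 to 116 in SRAKO; their part in its level was not tested.

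The light chains that can pair with Slc3a2 (Slc7a5, Slc7a6, Slc7a7, Slc7a8, Slc7a10 and Slc7a11) summed to 9.45 ± 1.72 FPKM in WT and 9.68 ± 0.487 in SRAKO. The heavy chain stood at 1.18 ± 0.00873 times that sum in WT and 1.27 ± 0.224 times in SRAKO (exact two-sided permutation p = 0.5). By heart the ratio was 1.17, 1.19 and 1.18 in WT and 1.02, 1.35 and 1.44 in SRAKO, so that SRAKO hearts lay on both sides of WT. Within the light chain sum, Slc7a8 made up 12.8%, 12.3% and 16.5% in the WT hearts and 20.04%, 21.8% and 22.8% in the SRAKO hearts, without overlap (exact two-sided permutation p = 0.1). This share is computed from the Slc7a8 values given above and is no separate support for a difference. Slc7a7 made up 44.2% ± 3.14 in WT and 32.8% ± 10.1 in SRAKO, with overlap.

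Slc36a1 encodes PAT1, a proton-coupled carrier of small amino acids found at the lysosome and linked to mTORC1. It was at 2.60, 2.28 and 2.40 FPKM in the WT hearts and at 0.650, 2.31 and 0.552 in the SRAKO hearts. SRAKO2365 and SRAKO2372 were low, while SRAKO2371 lay within the WT range. No other tested member spread as widely over the 6 hearts, with a highest value 4.70 times the lowest, against 1.31 to 2.39 times for the other 16. Means were 2.43 ± 0.163 and 1.17 ± 0.989, which puts SRAKO at 48.3% of WT. On the log2 scale the difference was -0.75 (SE 0.27; limma, unadjusted p = 0.0238; Benjamini-Hochberg adjusted p = 0.999; exact two-sided permutation p = 0.2). Without SRAKO2371 the difference was -1.10 and the gene passed limma with Benjamini-Hochberg adjustment (adjusted p = 0.0323, against 0.721 to 1 in the other fits; 0.0398% of all rows passed), the only fit of those run in which a member did. That fit left out the SRAKO heart within the WT range, and the gene passed its filter through the WT hearts alone. The separation in it was thus set by the choice of heart, and the call is no support for a difference. Without either of the low SRAKO hearts the difference was -0.55 or -0.59. Its row (GRCm38 chromosome 11, 55204350 to 55236330, plus strand) joins 4 transcripts of 460 to 5264 bases. A shift between transcripts of such unequal length can move a length-scaled value, but levels of single transcripts were not analysed here. Unequal lengths are not particular to this gene. Slc38a10 joins transcripts of 328 to 4578 bases and Slc43a3 of 330 to 2621, and their highest values were 1.41 and 1.31 times the lowest.

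**Figure D3:**
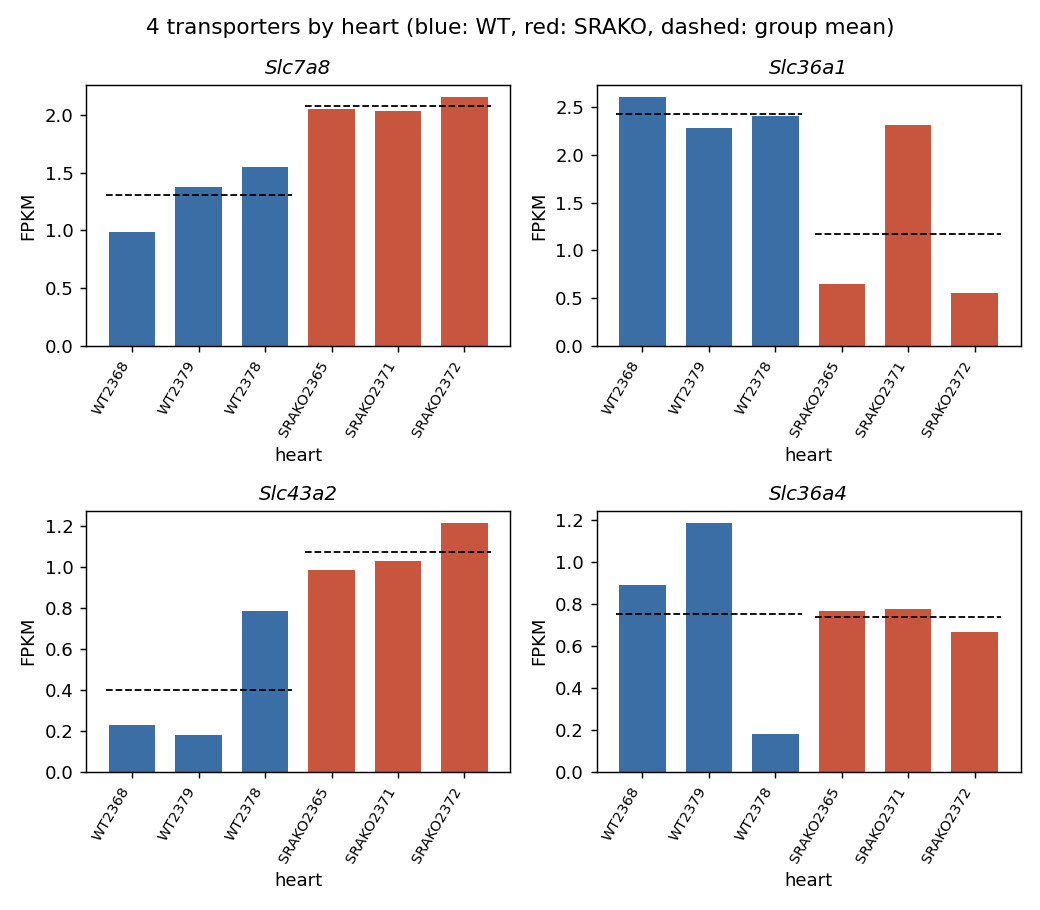
FPKM of Slc7a8, Slc36a1, Slc43a2 and Slc36a4 in each heart (blue WT, red SRAKO; dashed lines are group means), each panel with its own axis from 0. Slc7a8 and Slc43a2 are higher in every SRAKO heart than in any WT heart, Slc36a1 is low in SRAKO2365 and SRAKO2372, and Slc36a4 is low in WT2378 at 0.180.

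Similar splits within a genotype appeared in Slc43a2 and Slc36a4, which lay below the filter. Slc43a2, the carrier LAT4 that lets branched-chain amino acids and phenylalanine out of cells, was at 0.229, 0.180 and 0.784 FPKM in WT and at 0.985, 1.03 and 1.22 in SRAKO. The SRAKO hearts lay above all WT hearts, with WT2378 nearest to them (exact two-sided permutation p = 0.1). Slc36a4, the carrier PAT4, was at 0.891, 1.19 and 0.180 in WT and at 0.765, 0.778 and 0.668 in SRAKO, so that WT2378 alone was low. Both rows also join transcripts of unequal length, 407 to 7145 bases in Slc43a2 and 1745 to 6539 in Slc36a4. Exons of Slc43a2 overlap the gene Gm45606 on the other strand by 922 bases, and without strand information their reads cannot be told apart. The same limit holds for other members, among them Slc7a7 (232 bases with Oxa1l), Slc3a1 (601 with Prepl) and Slc1a1 (2631 with 4430402I18Rik).

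Of the 17 tested members, 3 (Slc36a2, Slc1a5 and Slc7a6) were highest in SRAKO2371, the heart with the most fat cell RNA. Of all tested rows 13.5% were highest there, and a count of 3 cannot be set apart from that share. Some members below the filter were also highest there, Slc7a10 and Slc7a4 among them, and several of these were close to 0. Slc36a2 is known as a surface marker of brown fat cells and Slc7a10, the carrier Asc-1 of alanine, serine and cysteine, as one of white fat cells. Slc36a2 had a mean of 5.05 ± 0.763 FPKM in WT against 6.42 ± 2.46 in SRAKO (log2 difference 0.25, SE 0.22), and the difference was -0.003 without SRAKO2371. Slc7a10 was at 0.302, 0.123 and 0.382 in WT and at 0.131, 0.658 and 0.349 in SRAKO, and its exons overlap those of Lrp3 on the other strand by 377 bases. Slc1a5 had means of 8.29 ± 1.36 and 10.4 ± 2.68 (difference 0.27, SE 0.19), and the difference was 0.10 without SRAKO2371.

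Slc36a2, Slc1a5, Slc7a6 and Slc7a10 were grouped here because they were highest in SRAKO2371, already named for its fat marker RNA. A top heart shared with the fat markers was thus set by that choice and is no support for a link. The summed level of the 8 adipocyte markers was 45.3, 44.8 and 72.5 FPKM in WT and 40.8, 237 and 124 in SRAKO, and 6 of the 8 were highest in SRAKO2371. Ucp1, the uncoupling protein that defines brown fat, was at 2.44, 2.82 and 18.0 in WT and at 0.834, 98.9 and 51.1 in SRAKO. For Slc36a2, Slc1a5 and the marker sum the 3 highest hearts were SRAKO2371, SRAKO2372 and WT2378. Slc7a10 had the same 3 hearts on top. For Slc7a6 the 3 highest hearts were SRAKO2371, SRAKO2372 and WT2379, which are not those of the adipocyte sum. The sum of the neutrophil markers had these hearts on top, and it was set beside Slc7a6 after the values were seen. Shared top hearts, for Slc7a6 and for the other transporters grouped here, are thus no support for a link. None of these transporters passed limma with Benjamini-Hochberg adjustment where tested, and the part of fat cell or neutrophil RNA in their levels was not tested.

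**Figure D4:**
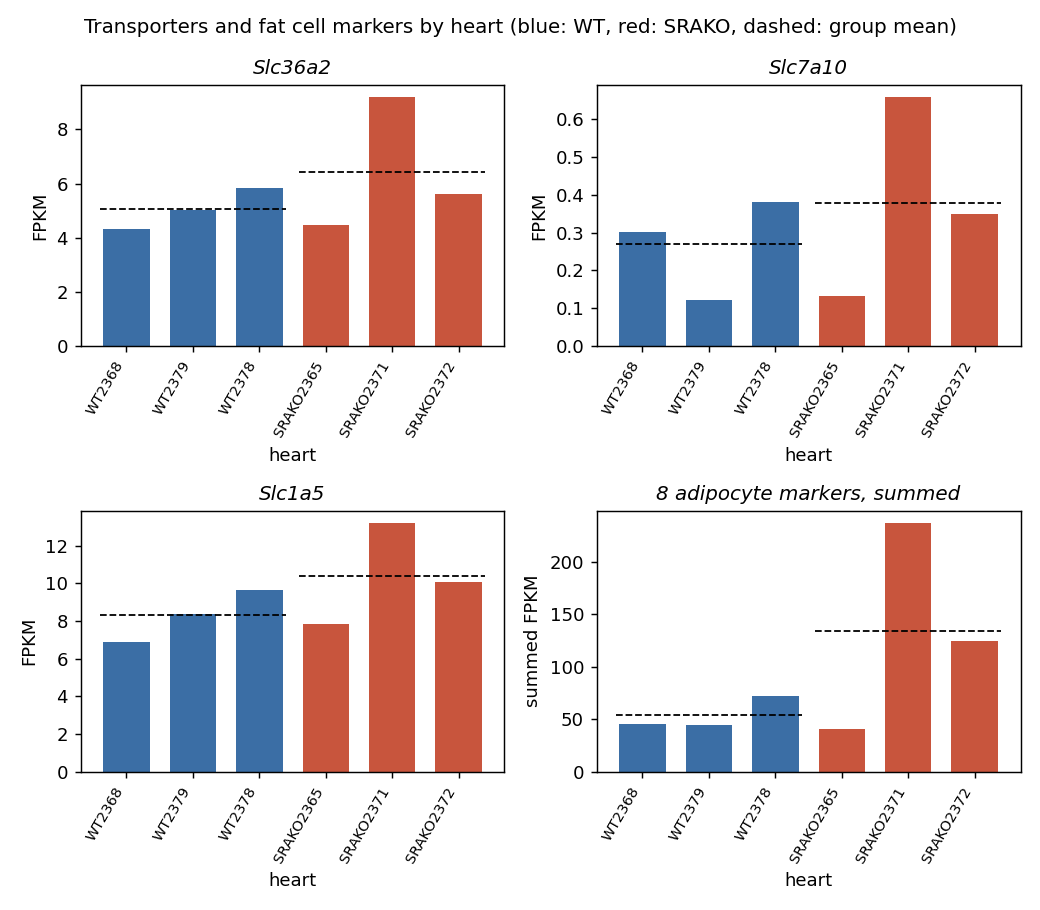
FPKM of Slc36a2, Slc7a10 and Slc1a5, and the summed FPKM of 8 adipocyte markers, in each heart (blue WT, red SRAKO; dashed lines are group means), each panel with its own axis from 0. The transporters were grouped as highest in SRAKO2371, the heart that is also highest in the marker sum. SRAKO2365 is close to the lowest WT heart or below it in Slc36a2, Slc7a10 and the markers.

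The sodium-coupled SLC38 carriers had 6 tested members, 3 above and 3 below WT, with a median log2 difference of -0.05 and 0 at an unadjusted p under 0.05. Slc38a2 differed by -0.23 (SE 0.22), and this rested on WT2379 at 30.5 FPKM, which was also the heart with the most atrial RNA. Without WT2379 the difference was 0.03, and the part of atrial RNA was not tested. Slc38a3 and Slc38a10 differed by 0.01 (SE 0.13) and 0.06 (SE 0.14), with 95% intervals of -0.30 to 0.32 and -0.26 to 0.38. Slc38a7, the carrier SNAT7 that releases glutamine from lysosomes, was at 2.44, 3.01 and 3.29 FPKM in WT and 3.65, 3.11 and 3.35 in SRAKO (difference 0.16, SE 0.11). Slc38a1, the glutamine carrier SNAT1, was at 1.59, 2.20 and 1.80 in WT and 1.48, 1.46 and 1.902 in SRAKO (difference -0.13, SE 0.12). Slc38a4, the carrier SNAT4 known from liver and placenta, had means of 1.74 ± 0.226 and 1.54 ± 0.263. Genotypes overlapped in all 6 genes.

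Slc38a9, the lysosomal arginine sensor of mTORC1, lay below the filter at 0.525, 0.502 and 0.437 FPKM in WT and 0.475, 0.392 and 0.438 in SRAKO. Slc38a6 was at 0.422 ± 0.0132 in WT and 0.417 ± 0.0504 in SRAKO. Slc38a5 and Slc38a11 had means under 0.1 in both genotypes. Neither Slc38a9 nor Slc38a6 separated the genotypes.

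The cationic carriers were represented above the filter by Slc7a1, with 4.12 ± 1.02 FPKM in WT and 4.14 ± 0.139 in SRAKO and a log2 difference of 0.03 (95% interval -0.32 to 0.38). Slc7a2, the carrier CAT2 that supplies arginine for nitric oxide in many cells, was at 0.423 ± 0.167 in WT and 0.447 ± 0.0216 in SRAKO. Slc7a4, a relative with no settled transport function, was at 0.196, 0.225 and 0.230 in WT and at 0.327, 0.386 and 0.285 in SRAKO, without overlap (exact two-sided permutation p = 0.1). Slc7a3, the carrier CAT3 known from brain, was at 0.0288 ± 0.0137 and 0.0791 ± 0.0145, also without overlap, at a level close to absence. When all 25901 rows were tested without a filter, 5 members had an unadjusted p under 0.05 (Slc36a1, Slc7a8, Slc43a2, Slc7a4 and Slc7a3) against 3.55% of all rows. In that fit genotypes did not overlap in 4 of them (all but Slc36a1) against 7.41% of all rows, and none passed limma with Benjamini-Hochberg adjustment (smallest adjusted p = 0.932).

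Among the SLC1 genes, Slc1a4, the carrier ASCT1 of alanine, serine and cysteine, was the second that passed the filter, at 0.654, 1.34 and 1.16 FPKM in WT and 1.03, 1.11 and 1.10 in SRAKO (log2 difference 0.04, SE 0.13). The glutamate carriers were low in all hearts. Slc1a1 (EAAT3) had a mean of 0.361 ± 0.0730 FPKM in WT and 0.300 ± 0.0402 in SRAKO, and Slc1a3 (EAAT1) 0.246 ± 0.0557 and 0.255 ± 0.0395. Slc1a7 (EAAT5) was at 0.657 in WT2379 and between 0.197 and 0.293 in the other 5 hearts. Slc1a2 (EAAT2) did not exceed 0.0655 in any heart, and Slc1a6 (EAAT4) was listed at 0 in 5 hearts.

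The remaining members were low as well. Slc3a1, the heavy chain rBAT that pairs with Slc7a9 in cystine uptake, had means of 0.116 ± 0.0269 FPKM and 0.0724 ± 0.0204. Slc7a13, Slc7a14 and Slc7a15 had means under 0.1 in both genotypes. Slc43a1, the carrier LAT3 of branched-chain amino acids, was at 0.400, 0.489 and 0.570 in WT and at 0.519, 0.735 and 0.791 in SRAKO, with overlap.

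Slc7a11 encodes xCT, the light chain that imports cystine in exchange for glutamate and supplies glutathione synthesis. It is induced through ATF4, the transcription factor of the amino acid response, in many cells under stress. In these hearts it was at 0.00492, 0.00404 and 0.00262 FPKM in WT, at 0.00331 in SRAKO2365, and listed at 0 in SRAKO2371 and SRAKO2372. The gene had next to no RNA in either genotype.

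Promoter sequences of RefSeq on GRCm38.p6 were found for 28 of the 38 members, 38 windows in all, and the 250 bases before each start were searched on both strands. The core of the C/EBP-ATF response element, TGATGNAA, through which ATF4 acts, was present in 3.45% of all 32851 windows and in 3 member windows, 1 of Slc7a11 and 2 of Slc7a7. Slc7a11 holds it at 66 and, on the opposite strand, at 47 bases before the start, counted from the left end of each match. The E-box CACGTG was present in 6.02% of all windows and in 7 members, among them Slc36a1 at 31 bases before its start. The motifs do not overlap each other in these windows. A match describes letters in the window and not binding. The 3 sequences below belong to the member with a known ATF4 element and almost no RNA, to the expressed member with the same core, and to the member that spread most between hearts. Of the 2 Slc7a7 windows the upstream one is shown, which holds TGATGAAA. The annotated transcripts of the Slc7a7 row reach only to 54417780 and so do not include the start of that window. The other Slc7a7 window, not shown, holds TGATGCAA at 243 bases before its start. Capitals mark the motif.
Slc7a11 (GRCm38.p6, chr3:50443614-50443863, minus strand): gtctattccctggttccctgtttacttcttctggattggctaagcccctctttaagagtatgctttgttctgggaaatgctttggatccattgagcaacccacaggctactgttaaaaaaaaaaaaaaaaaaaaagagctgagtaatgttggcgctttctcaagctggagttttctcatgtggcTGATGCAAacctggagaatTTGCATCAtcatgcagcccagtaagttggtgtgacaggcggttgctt
Slc7a7 (GRCm38.p6, chr14:54417945-54418194, minus strand): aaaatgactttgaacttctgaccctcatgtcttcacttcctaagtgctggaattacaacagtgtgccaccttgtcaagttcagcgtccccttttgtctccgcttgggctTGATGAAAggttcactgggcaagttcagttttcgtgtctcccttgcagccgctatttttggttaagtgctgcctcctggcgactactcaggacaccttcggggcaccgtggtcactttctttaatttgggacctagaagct
Slc36a1 (GRCm38.p6, chr11:55204090-55204339, plus strand): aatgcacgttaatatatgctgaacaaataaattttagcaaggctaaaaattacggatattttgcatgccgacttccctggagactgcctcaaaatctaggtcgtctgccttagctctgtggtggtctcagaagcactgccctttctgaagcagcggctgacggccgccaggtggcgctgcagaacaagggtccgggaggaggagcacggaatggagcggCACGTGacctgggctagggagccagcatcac

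Genes of the amino acid response, which starvation for amino acids switches on through ATF4, gave no call. Of 29 genes listed, 16 were tested, 10 above and 6 below WT, with a median log2 difference of 0.08, and none passed limma with Benjamini-Hochberg adjustment (smallest adjusted p = 0.999). The 2 with an unadjusted p under 0.05 were both lower, against 1.56% of all tested rows in that direction. Aldh18a1, the first enzyme of proline synthesis from glutamate, was at 2.15, 2.68 and 2.40 FPKM in WT and 1.87, 1.75 and 1.78 in SRAKO, without overlap (difference -0.28). Atf3, a stress-induced transcription factor, was at 1.69, 8.65 and 4.50 in WT and 1.54, 2.30 and 1.08 in SRAKO, with WT2379 far above the rest (difference -1.01). Nupr1, a stress-induced chromatin regulator, differed by 0.34 and Stc2, a secreted glycoprotein, by 0.27. Asns, the asparagine synthetase that marks this response, stayed below the filter at 0.793 ± 0.229 and 0.963 ± 0.315.

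The remaining lists gave no call either. Of 38 genes of amino acid sensing by mTORC1, 31 were tested, 17 above and 14 below WT, with a median of 0.01, and 0 had an unadjusted p under 0.05. The smallest p belonged to the mTORC1 inhibitor Akt1s1 (in a row with Mir707) at 9.14 ± 1.57 and 10.7 ± 0.766, followed by Nprl2, a subunit of the GATOR1 complex, at 6.91 ± 0.145 and 6.22 ± 0.427. Sesn1, a leucine-responsive regulator, had means of 20.6 ± 5.37 and 23.5 ± 1.28, and the mTOR subunit Mlst8 3.51 ± 0.527 and 2.98 ± 1.10. Of 15 tested carriers of amino acids and related compounds outside the 6 families, 9 were above and 6 below, with a median of 0.02. The creatine carrier Slc6a8 had 20.04 ± 6.46 and 15.1 ± 1.73, the vesicular glutamate carrier Slc17a7 8.07 ± 3.33 and 5.62 ± 0.948, the mitochondrial glutathione carrier Slc25a39 17.4 ± 1.23 and 19.2 ± 2.02, and Slc25a44, which takes branched-chain amino acids into mitochondria, 4.43 ± 0.382 and 4.99 ± 0.878.

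Enzymes of glutamine, glutamate, aspartate and arginine had 15 tested members, 9 above and 6 below WT, with a median of 0.09 and 0 at an unadjusted p under 0.05. Glutamine synthetase, Glul (in a row with Mir8114), was at 137 ± 27.5 FPKM in WT and 163 ± 20.5 in SRAKO, a level above that of any of the 38 transporters. The aspartate aminotransferase Got1 was at 202 ± 33.8 and 251 ± 71.4, the alanine aminotransferase Gpt at 9.61 ± 1.88 and 11.5 ± 0.315, and Gclm, which modulates glutathione synthesis, at 1.83 ± 0.354 and 2.18 ± 0.0834. Every gene named from these lists had an adjusted p of 0.999 in limma with Benjamini-Hochberg adjustment where tested.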

How the data were processed

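The authors deposited 1 table of FPKM values per gene and heart, per the file headers; reads were not analysed here. The tools named, per the submitters' processing notes, are StringTie 1.3.4d, HISAT2 2.0.4, edgeR (no version given) and cutadapt 1.9, and the build named is hg38, while the identifiers are of mouse genes and 98.3% of the transcript identifiers matched GENCODE M21 on GRCm38. Coordinates come from that annotation, so the build the authors aligned to is open. Groups were read from the sample titles, which give each heart its own number; nothing says that the hearts came from separate litters, so p-values measure the spread between these samples. Libraries were made with oligo(dT) beads, per the labels.

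The highest-mean row of each symbol was used. Rows that reached 1 FPKM in 3 or more hearts were tested on log2(FPKM + 1), which understates changes of low genes, with limma 3.58.1 in R 4.3.3. The fit used genotype alone, a variance trend and two-sided tests, with Benjamini-Hochberg adjustment over all tested rows and a threshold of 0.05. The code was tested on simulated data. Single values were compared by an exact permutation test. The depth is known only roughly: taking the steps between the 60 lowest values as 1 aligned base, an FPKM of 1 stood for 8282 to 13080 bases per kilobase, but only 50.0% to 63.3% of the values fell on whole steps within 0.05, and for WT2368 another step did as well. No count test was run.

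Values in all hearts are given for the 8 strongest members, the 8 with the smallest p, those without overlap and 8 fixed genes (Slc3a2, Slc7a1, Slc7a5, Slc7a8, Slc7a11, Slc1a5, Slc38a2 and Slc38a9); of each other list the 4 genes with the smallest p are named. Slc36a4, Slc43a2, Slc7a4, Slc7a3, Slc7a10, Slc43a1, Slc1a4, Slc1a7, Asns, Ucp1, C1qa, Myh11, Ryr2, Kcnj3 and Fabp4 are named outside this rule, after their values were seen. The members, lists and motifs were chosen with earlier results of these data known. Alternatives changed the pseudocount, filter, scaling, weights, variance trend and hearts used.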

Additional observations from a re-analysis of the deposited data

How the results depend on the processing

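No member was called in 13 of 14 alternatives, and 0 to 1 when 1 heart was left out, the 1 being Slc36a1 (-1.10) without SRAKO2371. That fit leaves out the SRAKO heart that lay within the WT range of this gene. The number of rows called in the whole table was 2, and 1 with a pseudocount of 0.1, 0 without a filter and 1 with a filter at 5 FPKM. It was 0 without both WT2368 and SRAKO2371, and 0 to 6 with 1 heart left out. WT2368 and SRAKO2371 were left out together because earlier work reported more ribosomal RNA there, which was not measured here. Members at an unadjusted p under 0.05 numbered 2, and 5 without a filter (3.55% of all rows), 0 with the filter at 5 FPKM (2.57%), which left 7 members, 1 without both hearts (6.56%), and 1 to 4 with 1 heart left out (1.98% to 6.8%). Members without overlap numbered 1, and 4 without a filter (7.41% of all rows), 0 with the filter at 5 FPKM (6.88%), 6 without both hearts (39.1%), and 2 to 4 with 1 heart left out (14.5% to 24.8%), where fewer hearts leave fewer chances to overlap. The median difference was 0.04 and ran from -0.095 (without WT2368) to 0.109 with 1 heart left out. In those fits the median over all tested rows ran from -0.037 (without WT2368) to 0.037. Slc7a8 stayed above WT in all 13 alternatives where it was tested, from 0.32 to 0.66, and Slc36a1 below in 12, from -1.26 to -0.55.

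Small differences changed sign; the cause was not tested. Without both hearts Slc1a5 was at -0.011, Slc36a2 at -0.094, Slc38a10 at -0.072, Slc38a3 at -0.007, Slc3a2 at -0.030, Slc43a3 at -0.060 and Slc7a1 at -0.135. With array weights Slc38a10 was at -0.040, Slc38a3 at -0.031, Slc3a2 at -0.001, Slc43a3 at -0.034 and Slc7a1 at -0.075. Slc38a3 was at -0.002 with median-of-ratios scaling and -0.010 with quantile normalisation. With 1 heart left out Slc36a2 ran from -0.003 to 0.445, Slc38a10 from -0.093 to 0.136, Slc38a2 from -0.379 to 0.030, Slc38a3 from -0.095 to 0.10, Slc3a2 from -0.002 to 0.251, Slc43a3 from -0.076 to 0.109, Slc7a1 from -0.144 to 0.146 and Slc7a5 from -0.209 to 0.074. Summing the rows of a symbol was not run because each member had 1 row. The roughly known depth limits the lowest genes most.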
